A study of Mus musculus with 2 samples.

Results

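Kinesins, cytoplasmic dynein and dynactin are the motor machinery that moves cargo along microtubules. The 58 motor genes described here were taken by symbol from the annotation carried by the transcript tables, as the kinesin heavy chain genes (Kif and Kifc), the kinesin light chain genes (Klc), the cytoplasmic dynein chain genes (Dync1 and Dync2) and the numbered dynactin genes (Dctn). They are 58 of 55536 annotated genes, and all 58 are among the 22015 nuclear protein-coding genes. No measured value entered the choice. By role they comprise 15 transport kinesins, 4 kinesin light chains, 5 genes of cytoplasmic dynein 1, 6 of dynactin, 2 of the ciliary dynein 2, 5 kinesins that regulate microtubules, 6 ciliary or Hedgehog kinesins, 13 mitotic kinesins and 2 others.

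Most kinesins walk towards the plus ends of microtubules, which in axons point away from the cell body, and so drive anterograde transport of vesicles, mitochondria and other cargo. Cytoplasmic dynein 1, assisted by its activator dynactin, walks towards the minus ends and carries cargo back. A separate set of kinesins builds and moves the mitotic spindle in dividing cells, while most neurons of the grown cortex no longer divide.

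Left cerebral cortex came from 2 female mice, both 36 days old and of the hybrid strain B6CASTF1/J (C57BL/6J crossed with CAST/EiJ), with no treatment named in the labels, and its total RNA was sequenced. Replicate 2 and replicate 1 name the mice as the labels do, with 1 library per mouse from 300 ng of RNA. The labels number the samples as separate animals and as biological replicates but give both the same donor record, so an SD over them is a spread between mice only if the animal numbers hold. Both mice belong to 1 group, so the question here is how transport and mitotic motors stand to each other in this tissue. No condition is compared, and the SD over 2 mice is the only error that replication gives.

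Expected counts summed to 35188800 in replicate 2 and 29417200 in replicate 1, to the nearest 100. Levels come from the gene table, and a second transcript table, from the authors' other quantifier, is set beside them. Markers of neurons, astrocytes, oligodendrocytes, their precursors, microglia and endothelial cells were all present at 1 TPM or more in each library, TPM being a level per transcript length scaled to a fixed total. The same held for 2 of 5 markers of ependymal cells and 2 of 3 of choroid plexus. The median TPM of the neuronal markers was 390 in replicate 2 and 459 in replicate 1. None of 5 markers of cycling cells reached 1 TPM in either library. Among 3 choroid plexus markers, Ttr differed most, with a TPM of 8.29 in replicate 2 and 70.1 in replicate 1. In bulk tissue, fewer cells of a type and less RNA per cell cannot be told apart.

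Motor genes spanned a wide range of levels, in which the kinesins listed as transport and as mitotic lay apart while other roles overlapped. Both libraries gave 1 TPM or more for 42 of 58 motor genes (72.4%), against 57.9% of nuclear protein-coding genes. A mean of at least 100 TPM was reached by 11 motor genes (19.0%), against 3.96% of protein-coding genes. All transport kinesins, light chains, dynein 1, dynein 2, dynactin and microtubule-regulating genes passed 1 TPM in both mice. The 16 that did not were 10 mitotic kinesins, 4 ciliary or Hedgehog kinesins, Kif12 and Kif28. Of these 16, 13 were below 1 TPM in both mice and 3 in 1 mouse only.

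**Figure D1:**
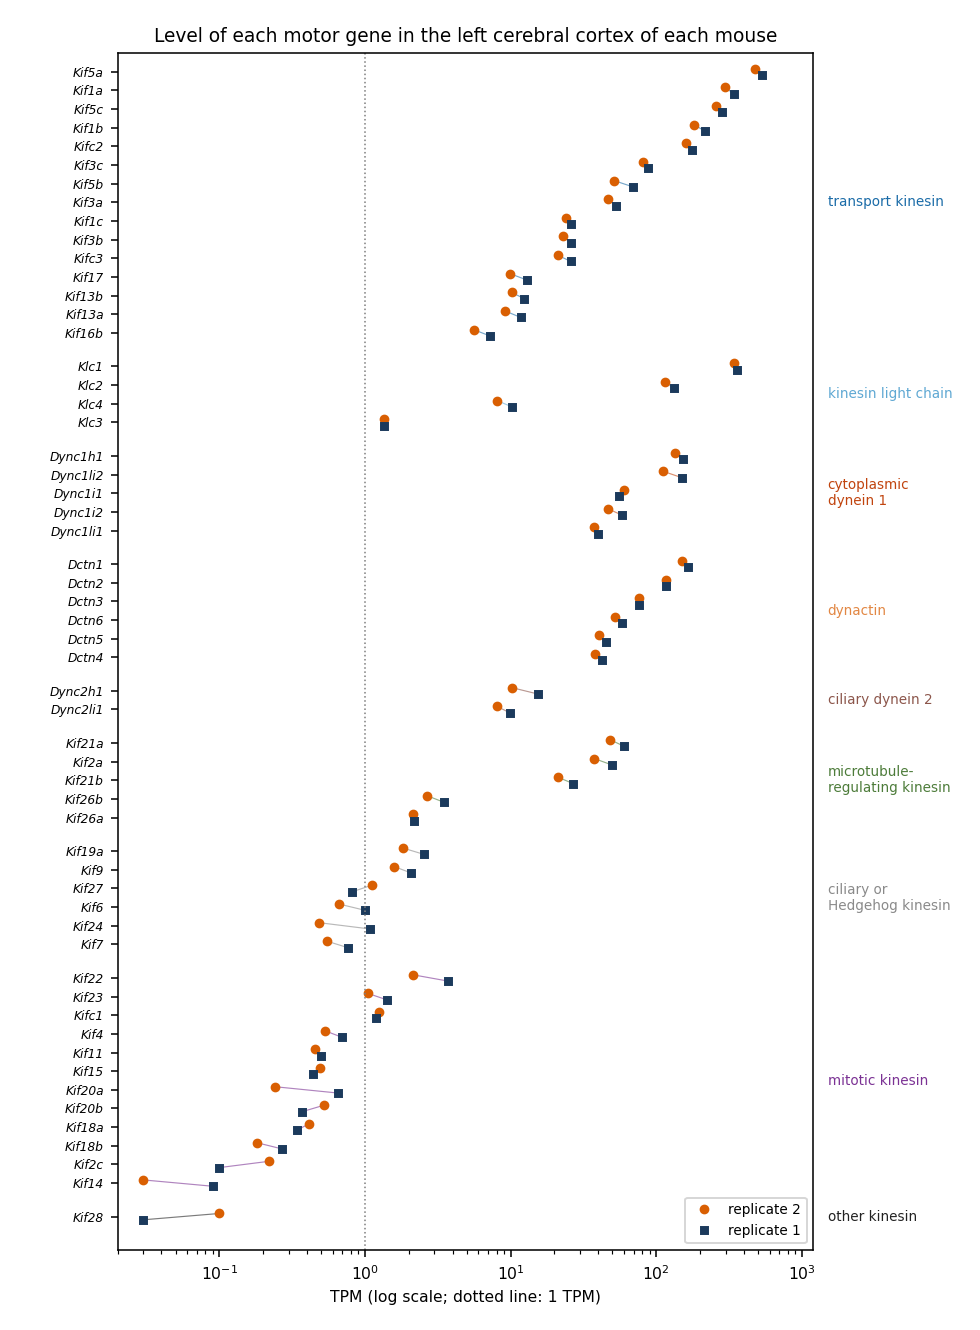
TPM of each motor gene on a log axis, with replicate 2 as circles and replicate 1 as squares, grouped by role, the dotted line at 1 TPM. Every kinesin listed as transport lies right of 5 TPM and every one listed as mitotic left of 4 TPM in both mice. This gap depends on the role lists, since Kif2a, a relative of the mitotic Kif2c listed as microtubule-regulating, lies within the transport range. Kif12 and Kif2b, at 0 in both libraries, are not drawn.

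Among the kinesin-1 heavy chains, the main carriers of fast axonal cargo, Kif5a stood at the top of the order. Kif5a, the paralog known for its neuronal restriction and for human motor neuron disease, had a TPM of 477 in replicate 2 and 536 in replicate 1 (506 ± 41.6, SD, n = 2). The gene (chr10:127225696-127263348, minus strand, mm10) ranked first of the 58 motor genes and at the 99.7th percentile of protein-coding genes. Kif5c, the other neuron-enriched paralog, had 255 TPM in replicate 2 and 282 TPM in replicate 1 (269 ± 19.0, SD, n = 2). Kif5b, which is made in most cell types, had 51.2 TPM in replicate 2 and 69.2 TPM in replicate 1 (60.2 ± 12.7, SD, n = 2). Kif5a therefore took 60.6% ± 0.35 of the summed kinesin-1 TPM, Kif5c 32.2% ± 0.55 and Kif5b 7.17% ± 0.89 (SD, n = 2). The 3 shares did not overlap in either mouse, and the ratio of Kif5a to Kif5b in TPM was 9.31 in replicate 2 and 7.74 in replicate 1. The second quantifier put the same ratio at 4.83, so its size depends on the quantifier while the order of the 3 genes does not. Of the Kif5b TPM by that quantifier, 57.7% in replicate 2 and 65.0% in replicate 1 was on protein-coding transcripts of at least 1000 bases. On those transcripts alone it gave Kif5a 751 TPM in replicate 2 and 752 TPM in replicate 1, and Kif5b 88.1 TPM and 103 TPM. The ratio of 4.83 thus includes short or non-coding transcripts of Kif5b.

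The kinesin-3 genes were led by Kif1a (chr1:93015464-93101951, minus strand, mm10), the motor of synaptic vesicle precursors. Kif1a had 297 TPM in replicate 2 and 340 TPM in replicate 1 (318 ± 30.6, SD, n = 2). Kif1b, whose products carry mitochondria and vesicle precursors, had 182 TPM in replicate 2 and 215 TPM in replicate 1 (198 ± 23.4, SD, n = 2). The ratio of Kif1a to Kif1b was 1.63 in replicate 2 and 1.58 in replicate 1, so the order held within each mouse. Kif1c, a motor best described in non-neuronal cells, had 24.04 TPM in replicate 2 and 26.02 TPM in replicate 1 (25.0 ± 1.4, SD, n = 2). The endosome and vesicle motors Kif13b (11.3 ± 1.63 TPM), Kif13a (10.5 ± 1.8 TPM) and Kif16b (6.42 ± 1.18 TPM, SD, n = 2 each) were the lowest of the family. Kif13b and Kif13a did not differ beyond their spread.

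Kinesin-2 works as a complex of KIF3A with KIF3B or KIF3C, or as KIF17 alone. Kif3c, the neuron-enriched partner, had 81.3 TPM in replicate 2 and 87.1 TPM in replicate 1 (84.2 ± 4.13, SD, n = 2). Kif3a, the common partner, had 46.5 TPM in replicate 2 and 53.3 TPM in replicate 1 (49.9 ± 4.77, SD, n = 2). Kif3b had 22.9 TPM in replicate 2 and 26.2 TPM in replicate 1 (24.5 ± 2.33, SD, n = 2). Kif3c was thus 3.56 times as high as Kif3b in replicate 2 and 3.33 times in replicate 1. The 2 alternative partners together came to 2.24 times the TPM of Kif3a in replicate 2 and 2.13 times in replicate 1, against 1.48 times by the second quantifier. By that quantifier, 60.3% of the Kif3a TPM in replicate 2 and 61.5% in replicate 1 was on protein-coding transcripts of at least 1000 bases. The share was 100% for Kif3b in both mice, and for Kif3c 95.7% in replicate 2 and 94.5% in replicate 1. Kif17, a dendritic motor, had 11.5 ± 2.15 TPM (SD, n = 2), and it overlaps the same-strand gene Sh2d5, at 28.7 TPM, whose reads may not be separable from it.

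The minus-end directed kinesins with a C-terminal motor were also present. Kifc2, described in neurons, had 161 TPM in replicate 2 and 175 TPM in replicate 1 (168 ± 10.3, SD, n = 2). Kifc3, known from epithelial junctions, had 21.01 TPM in replicate 2 and 25.9 TPM in replicate 1 (23.5 ± 3.46, SD, n = 2). Kifc2 was 7.66 times as high as Kifc3 in replicate 2 and 6.77 times in replicate 1. Kifc2 overlaps an expressed gene on the opposite strand, Cyhr1 at 69.3 TPM.

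All of these motors hydrolyse ATP in a phosphate-binding loop of the motor domain. The coding bases of that loop are shown for the highest transport kinesin and the highest mitotic kinesin, since it is the part that both classes share. They were read from the longest coding GENCODE transcript of each gene, 5′ to 3′ on the coding strand, with the 24 bases of the loop in capitals and 12 bases on each side. Kif5a-201 has it in exon 3, at chr10:127248030-127248077, and Kif22-201 across the junction of exons 3 and 4, at chr7:127034013-127034151, both on the minus strand of mm10.
Kif5a: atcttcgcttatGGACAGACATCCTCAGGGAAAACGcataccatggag
Kif22: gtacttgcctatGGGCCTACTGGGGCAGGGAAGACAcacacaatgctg
Of the 24 loop bases, 14 were identical between Kif5a and Kif22. The loop pattern was found in 14 of 14 transport and 12 of 12 mitotic kinesin transcripts searched.

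The kinesin light chains link kinesin-1 to cargo. Klc1 (chr12:111758849-111807844, plus strand, mm10) had 340 TPM in replicate 2 and 359 TPM in replicate 1 (349 ± 13.5, SD, n = 2), second only to Kif5a among the motor genes in the gene table. In the second table Klc1, at a mean of 470 TPM, was also below Kif1a (624 TPM) and Kif5c (483 TPM). On protein-coding transcripts of at least 1000 bases alone, that table put Klc1 at 484 TPM in replicate 2 and 450 TPM in replicate 1. Kif1a had 417 TPM in replicate 2 and 419 TPM in replicate 1 on them, and Kif5c 346 TPM and 359 TPM, both below Klc1. Klc2 had 115 TPM in replicate 2 and 132 TPM in replicate 1 (123 ± 11.7, SD, n = 2). Klc1 took 72.3% ± 1.21 and Klc2 25.5% ± 1.01 of the light chain TPM (SD, n = 2). Klc4 had 9.14 ± 1.53 TPM (SD, n = 2). Klc3, described in the male germ line, had 1.34 TPM in each library and overlaps Ercc2, at 12.4 TPM, on the other strand. The summed light chain TPM was 0.592 of the summed kinesin-1 heavy chain TPM in replicate 2 and 0.566 in replicate 1.

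**Figure D2:**
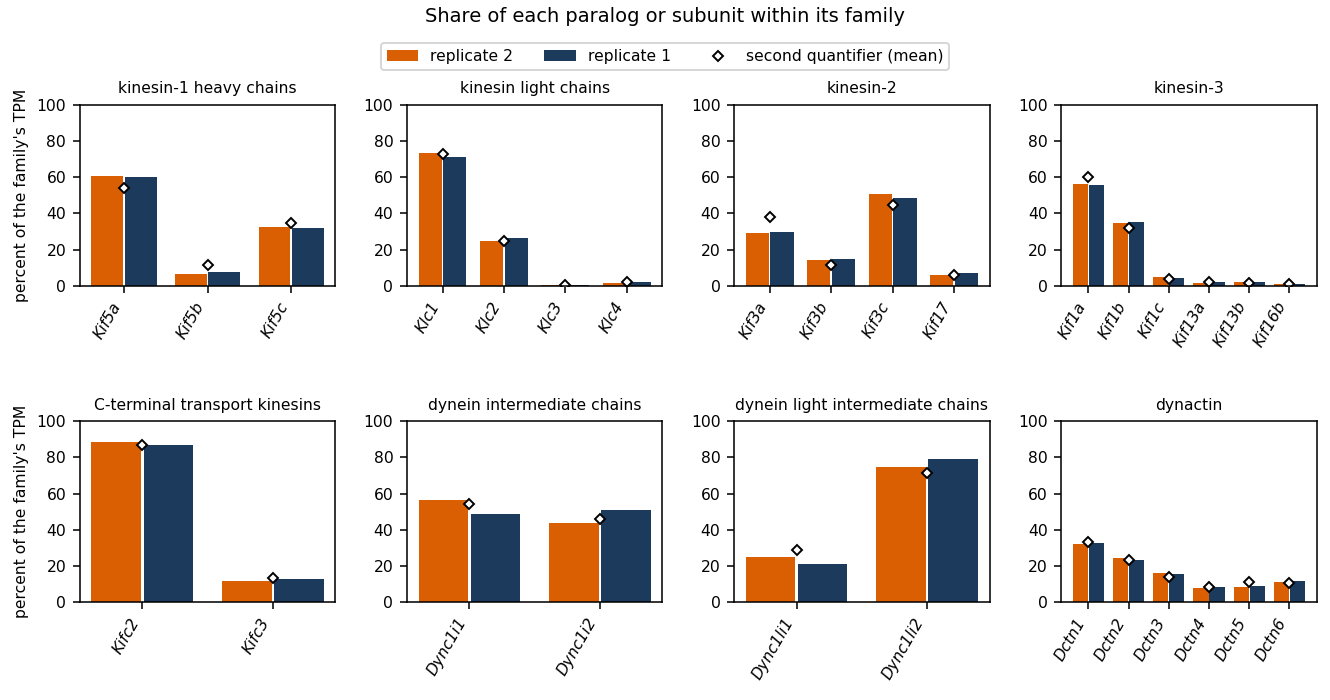
Percent of a family's summed TPM held by each paralog or subunit (y axis, from 0 to 100), with replicate 2 in orange left of replicate 1 in dark blue, and the mean of the second quantifier as diamonds. Kif5a, Kif1a, Klc1, Kifc2 and Dync1li2 lead their families in both mice and by both quantifiers, while Dync1i1 and Dync1i2 change places between the mice.

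Cytoplasmic dynein 1 was present with all of its measured chains. Dync1h1 (chr12:110601452-110666945, plus strand, mm10), the heavy chain that holds the motor, had 133 TPM in replicate 2 and 152 TPM in replicate 1 (143 ± 12.9, SD, n = 2). The light intermediate chains, which bind cargo adaptors, were unequal. Dync1li2 had 112 TPM in replicate 2 and 150 TPM in replicate 1 (131 ± 27.2, SD, n = 2), and Dync1li1 had 37.5 TPM in replicate 2 and 39.5 TPM in replicate 1 (38.5 ± 1.41, SD, n = 2). The ratio of Dync1li2 to Dync1li1 was 2.98 in replicate 2 and 3.81 in replicate 1, above 1 in both mice, and 2.48 by the second quantifier. On protein-coding transcripts of at least 1000 bases alone, Dync1li2 had 78.5 TPM in replicate 2 and 93.1 TPM in replicate 1. Dync1li1 had 36.8 TPM and 38.9 TPM on them.

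The intermediate chains, which bind dynactin, did not differ beyond their spread. Dync1i1, the neuron-enriched gene, had 59.7 TPM in replicate 2 and 55.6 TPM in replicate 1 (57.7 ± 2.88, SD, n = 2). Dync1i2, made in most cells, had 46.4 TPM in replicate 2 and 58.0 TPM in replicate 1 (52.2 ± 8.18, SD, n = 2). Their ratio was 1.29 in replicate 2 and 0.959 in replicate 1, so the order turned round between the mice. Against the heavy chain, the summed intermediate chains stood at 0.795 in replicate 2 and 0.749 in replicate 1, and at 0.921 by the second quantifier. The summed light intermediate chains stood at 1.12 in replicate 2 and 1.25 in replicate 1, and at 1.05 by the second quantifier. Of the Dync1li2 TPM in the first table, 70.1% in replicate 2 and 61.9% in replicate 1 was on protein-coding transcripts of at least 1000 bases. The ratios of 1.12 and 1.25 thus include short or non-coding transcripts.

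Dynactin, the activator that joins dynein to cargo and microtubule, was present with all 6 numbered genes. Dctn1 (chr6:83165920-83200117, plus strand, mm10), which encodes the p150-Glued arm, had 151 TPM in replicate 2 and 165 TPM in replicate 1 (158 ± 9.88, SD, n = 2). Dctn2, the dynamitin gene, had 116 TPM in replicate 2 and 116 TPM in replicate 1 (116 ± 0.36, SD, n = 2). Dctn3 had 76.0 TPM in replicate 2 and 76.6 TPM in replicate 1 (76.3 ± 0.45, SD, n = 2). These 3 genes, which make the shoulder and arm of the complex, took 71.8% ± 0.97 of the dynactin TPM (SD, n = 2), and their order was the same in both mice. Dctn6 (55.3 ± 4.08 TPM) and Dctn5 (42.7 ± 3.5 TPM), of the pointed end, and Dctn4 (40.0 ± 2.94 TPM, SD, n = 2 each), which is bound there too, followed. In replicate 2 these were 52.4, 40.2 and 37.96 TPM, and in replicate 1 they were 58.2, 45.2 and 42.1 TPM. Dctn5 and Dctn4 overlapped between the mice. Dctn1 stood at 1.13 of Dync1h1 in replicate 2 and 1.09 in replicate 1.

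Partners of these motors, taken as lists, were mostly present. Of 9 dynein light chain genes, 8 had at least 1 TPM in both mice, led by Dynll1 (270 ± 15.1 TPM) and Dynll2 (261 ± 28.8 TPM, SD, n = 2 each). The Dynlt1 genes in that list are near-identical copies whose reads were divided among them. All 6 other dynactin subunits passed, led by the actin-related Actr1b (151 ± 14.5 TPM) and the capping gene Capzb (143 ± 4.73 TPM, SD, n = 2 each). Of 12 dynein regulators and adaptors, 10 passed, led by Pafah1b1, the LIS1 gene, at 174 ± 14.96 TPM and Bicdl1 at 64.4 ± 6.95 TPM (SD, n = 2 each). All 14 kinesin adaptors found passed, led by the calsyntenin gene Clstn1 (674 ± 30.6 TPM) and the JIP3 gene Mapk8ip3 (161 ± 20.03 TPM, SD, n = 2 each). None of the 38 genes of these 4 lists with an average count of 100 or more was 1.5-fold apart between the mice in TMM-scaled counts, against 3.08% of all genes with such a count, so the lists stood near the background.

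Ciliary dynein 2, the retrograde motor of cilia, was lower than dynein 1. Its heavy chain Dync2h1 had 10.2 TPM in replicate 2 and 15.4 TPM in replicate 1 (12.8 ± 3.66, SD, n = 2), and Dync2li1 had 8.94 ± 1.26 TPM (SD, n = 2). Dync1h1 was 13.0 times as high as Dync2h1 in replicate 2 and 9.85 times in replicate 1. The ciliary or Hedgehog kinesins were lower still, between a mean of 0.655 TPM for Kif7, the Hedgehog pathway kinesin, and 2.18 TPM for Kif19a. Kif19a, which limits the length of motile cilia, had 1.82 TPM in replicate 2 and 2.54 TPM in replicate 1 (2.18 ± 0.51, SD, n = 2). Kif9 had 1.84 ± 0.35 TPM, Kif27 0.965 ± 0.21 TPM, Kif6 0.83 ± 0.24 TPM and Kif24, which restrains the growth of cilia, 0.78 ± 0.42 TPM (SD, n = 2 each). Markers of ependymal cells with motile cilia had a median TPM of 1.1 in replicate 2 and 1.03 in replicate 1. Kif7 overlaps an antisense transcript at 1.46 TPM.

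The kinesins listed as regulators of microtubules ranged widely, with means from 2.14 TPM for Kif26a to 54.2 TPM for Kif21a. Kif21a, which slows microtubule growth, had 48.5 TPM in replicate 2 and 59.99 TPM in replicate 1 (54.2 ± 8.12, SD, n = 2). Kif2a, which depolymerises microtubules and restrains axon branches, had 37.5 TPM in replicate 2 and 49.5 TPM in replicate 1 (43.5 ± 8.49, SD, n = 2). Kif21b had 21.1 TPM in replicate 2 and 26.8 TPM in replicate 1 (23.9 ± 4.07, SD, n = 2). Kif26b (3.08 ± 0.56 TPM) and Kif26a (2.14 ± 0.02 TPM, SD, n = 2 each), whose motors are thought not to hydrolyse ATP, were the lowest. Kif2c, the mitotic relative of Kif2a, had 11 counts in replicate 2 and 3 counts in replicate 1.

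The mitotic kinesins lay low in the order, none above a mean of 2.94 TPM. In the gene table, only Kif22, Kif23 and Kifc1 of 13 reached 1 TPM in both mice, and 10 were below 1 TPM in both. Kif22 (chr7:127027729-127042471, minus strand, mm10), which pushes chromosome arms outward, had 2.14 TPM in replicate 2 and 3.74 TPM in replicate 1 (2.94 ± 1.13, SD, n = 2). Kif23, a centralspindlin motor of cytokinesis, had 1.05 TPM in replicate 2 and 1.41 TPM in replicate 1 (1.23 ± 0.25, SD, n = 2). Kifc1, a minus-end motor that focuses spindle poles, had 1.24 TPM in replicate 2 and 1.19 TPM in replicate 1 (1.22 ± 0.04, SD, n = 2). These levels rest on few reads, 30 counts for Kif22 in replicate 2 and 24 in replicate 1, and no mitotic kinesin exceeded 59.1 counts in a library. The Kifc1 counts of 59.1 in replicate 2 and 48.7 in replicate 1 are partly divided with a near-identical copy and are uncertain. On protein-coding transcripts of at least 1000 bases alone, none of Kif22, Kif23 and Kifc1 reached 1 TPM in both mice. Kif23 had 0.35 TPM in replicate 2 and 0.33 TPM in replicate 1 on them, and Kifc1 0.96 TPM and 1 TPM. The second quantifier also put Kif2c past 1 TPM, at 2.69 TPM in replicate 2 and 2.86 TPM in replicate 1.

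The other 10 mitotic kinesins ran downward in mean TPM through Kif4 (0.61), Kif11 (0.475), Kif15 (0.465), Kif20a (0.445), Kif20b (0.445), Kif18a (0.375), Kif18b (0.225), Kif2c (0.16) and Kif14 (0.06) to Kif2b. Kif2b, described in testis, had 0 counts in both libraries, which allows up to 3 counts in each. Kif4, Kif20a and Kif18a each overlap a gene of higher TPM on the opposite strand. Those genes are Pdzd11 at 18.3 TPM, Cdc23 at 21.9 TPM and Mettl15 at 2.4 TPM, and the part of their reads in the kinesin values was not tested. Of 12 other cell cycle genes, which include the 5 markers of cycling cells, none reached 1 TPM in both mice. The highest were Aurka at 0.855 ± 0.47 TPM and Plk1 at 0.68 ± 0.18 TPM (SD, n = 2 each). Of the 2 remaining kinesins, Kif28 had 0.1 TPM in replicate 2 and 0.03 TPM in replicate 1 and overlaps the same-strand gene Ahctf1, and Kif12 had 0 counts in both libraries.

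Set against each other, the 15 transport kinesins had a median of 46.5 TPM in replicate 2 and 53.3 TPM in replicate 1, and the 13 mitotic kinesins a median of 0.45 TPM in replicate 2 and 0.44 TPM in replicate 1. The ratio of these medians was 103 in replicate 2 and 121 in replicate 1 (112 ± 12.5, SD, n = 2). The lowest transport value in any library was 5.58 TPM, for Kif16b, and the highest mitotic value was 3.74 TPM, for Kif22. The classes as listed thus did not overlap in either mouse, but the lists were chosen with earlier results known. Kif2a, a relative of the mitotic Kif2c, was listed as microtubule-regulating, at 37.5 TPM in replicate 2 and 49.5 TPM in replicate 1. Listed as mitotic, it would lie within the transport range, so the gap depends on the lists. Summed TPM gave a ratio of transport to mitotic kinesins of 220 in replicate 2 and 192 in replicate 1. With only protein-coding transcripts of at least 1000 bases, a choice made after the data were seen, the ratio of medians was 212 ± 53.9 (SD, n = 2). Such transcripts carried 93.4% of the summed transport TPM in replicate 2 and 93.0% in replicate 1, but 47.7% of the summed mitotic TPM in replicate 2 and 32.7% in replicate 1. For Kif22 they carried 12.6% in replicate 2 and 2.14% in replicate 1, nearly all the rest being on a retained intron of 295 bases and a coding transcript of 518 bases.

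The promoters of both classes were searched for a pair of short elements known from promoters of cell cycle genes. These were CCAAT, the letters bound by NF-Y, and TTTGAA, the cell cycle genes homology region, each on both strands. RefSeq windows of 300 bases, 250 before to 50 after the start, matched 44 of the 58 genes in GRCm38.p6. TTTGAA was in a window of 10 of 12 mitotic kinesins and of 1 of 10 transport kinesins, Kif1a, against 20.2% of all genes with a window and 17.9% of all windows. CCAAT was in a window of 8 of 12 mitotic and 3 of 10 transport kinesins, against 41.1% of all genes and 37.4% of all windows. Both were in 7 of 12 mitotic and 0 of 10 transport kinesins, against 8.97% of all genes with a window. These are matches of letters, not sites of binding.

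Among the mitotic kinesins Kif22 and Kifc1 tied for the most matches, with 4 each, a number that the ciliary kinesins Kif27 and Kif24 also had. Kif5c, with none, is shown beside them as a transport kinesin chosen after its count was seen. The windows run 5′ to 3′ on the strand of the gene, with every match of either element in capitals, and no match overlaps another. Kif22 lies at chr7:127042371-127042670 on the minus strand, Kifc1 at chr17:33890584-33890883 on the minus strand and Kif5c at chr2:49619036-49619335 on the plus strand.
Kif22: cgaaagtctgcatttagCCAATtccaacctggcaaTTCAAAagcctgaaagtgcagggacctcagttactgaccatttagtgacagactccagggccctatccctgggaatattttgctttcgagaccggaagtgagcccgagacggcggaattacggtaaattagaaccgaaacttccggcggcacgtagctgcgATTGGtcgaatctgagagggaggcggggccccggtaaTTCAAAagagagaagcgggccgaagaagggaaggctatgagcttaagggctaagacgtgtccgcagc
Kifc1: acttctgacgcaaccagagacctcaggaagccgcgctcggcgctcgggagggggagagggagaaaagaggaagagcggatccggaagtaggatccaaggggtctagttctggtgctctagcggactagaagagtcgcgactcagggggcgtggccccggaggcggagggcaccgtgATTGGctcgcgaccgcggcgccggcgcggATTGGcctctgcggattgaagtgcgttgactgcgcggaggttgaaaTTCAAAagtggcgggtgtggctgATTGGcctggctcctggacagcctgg
Kif5c: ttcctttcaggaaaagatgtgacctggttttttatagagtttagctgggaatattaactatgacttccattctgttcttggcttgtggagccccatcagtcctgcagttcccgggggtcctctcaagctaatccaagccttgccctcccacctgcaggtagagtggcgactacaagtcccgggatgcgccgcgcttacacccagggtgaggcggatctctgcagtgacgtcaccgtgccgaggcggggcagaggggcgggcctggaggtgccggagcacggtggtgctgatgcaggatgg
Kif22 holds 2 CCAAT and 2 TTTGAA matches, and Kifc1 holds 3 CCAAT matches and 1 TTTGAA match. Most of them read in reverse, as ATTGG and TTCAAA, along the strand shown.

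In the order of all 58 genes by mean TPM, many neighbours could not be separated. The ranges over the mice overlapped for 40 of 57 neighbouring pairs, and 34 of 57 pairs stood in the same order in both mice. Near the top, Klc1 and Kif1a overlapped while Kif5a, Kif5c and Kif1b were each clear of the next gene down. Kifc2, Dctn1, Dync1h1, Dync1li2 and Klc2 each overlapped the next gene, as did the run from Kif5b to Dctn4.

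The mice differed little in motor expression. For each gene the counts, scaled by TMM (a trimmed mean of ratios) to the size of the library (CPM), gave a log2 ratio of replicate 2 over replicate 1, and genes at least 1.5-fold apart with an average count of 100 or more were counted. By this rule 1 of 39 motor genes (2.56%) stood apart, against 3.08% of 12613 genes, so motor genes stood near the background. That gene was Kif27, a ciliary kinesin, with 129 counts in replicate 2 and 73 in replicate 1. Its log2 ratio was 0.62 with a 95% counting interval of 0.20 to 1.06. By the second quantifier, with 142 counts in replicate 2 and 92 in replicate 1, the log2 ratio was 0.48 and no longer past 1.5-fold, nor was it with spike-in scaling, at 0.16. Of the ependymal markers with an average count of 100 or more, Foxj1 had a log2 ratio of -0.11 and Rsph1 of -0.10. The other ependymal markers, on few counts, had positive ratios. Ccdc153 had 0.92 (17 counts in replicate 2 and 7 in replicate 1), Tmem212 0.36 (5 and 3) and Dynlrb2 0.11 (10 and 8). The choroid plexus marker Ttr had -2.82. The part of these cells in the Kif27 ratio was not tested.

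After Kif27, the largest log2 ratios towards replicate 2 were those of Dync1i1 (0.26, interval 0.19 to 0.33) and Dctn2 (0.24, interval 0.18 to 0.30). Towards replicate 1 they were those of Kif13b (-0.31, interval -0.42 to -0.20), Kif19a (-0.23, interval -0.61 to 0.15) and Kif9 (-0.19, interval -0.59 to 0.21). Kif13b had 1268 counts in replicate 2 and 1374 in replicate 1. The intervals cover counting error only, and those of Kif19a and Kif9 include 0.

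The median log2 ratio was 0.05 for the 15 transport kinesins, between -0.31 and 0.14, and 0.21 for the 10 mitotic kinesins with an average count of 10 or more, between -0.30 and 0.93. All 18180 genes with such a count had a median of 0.02. Pooled over the class, mitotic kinesins had 360 counts in replicate 2 and 277 in replicate 1, with a counting interval of the log2 ratio from -0.04 to 0.42 that includes 0. The mitotic median was -0.22 with spike-in scaling. Among the 5 markers of cycling cells, Top2a had 64 counts in replicate 2 and 36 in replicate 1, Ccnb1 had 18 in replicate 2 and 10 in replicate 1, and Aurkb had 12 in replicate 2 and 4 in replicate 1. Cdk1 had 7 counts in replicate 2 and 1 in replicate 1, and Mki67 had 76 in replicate 2 and 80 in replicate 1. All but Mki67 thus had more counts in replicate 2 and a positive log2 ratio, as the mitotic median did. These markers are part of the list of 12 cell cycle genes. In that list Mki67 (-0.26), Aurka (-0.29) and Plk1 (-0.31) had negative log2 ratios and the rest had positive ones, all on low counts. The part of such genes in the mitotic values was not tested. All 6 dynactin genes had a positive log2 ratio, between 0.10 and 0.24, and a negative one with spike-in scaling, which moved the median of all genes by -0.47. Their median was 0.15 against 0.04 for all genes with an average count of 100 or more, and -0.32 against -0.42 with spike-in scaling. Relative to that shift the motor genes moved with the rest, their median log2 ratio being -0.39 against -0.42 for all genes with an average count of 100 or more. Direction between the mice also depended on the measure. In TPM, 46 of 58 motor genes were lower in replicate 2 and 9 were higher, and of the dynactin genes only Dctn2 was higher. By TMM log2 ratio, 24 motor genes with an average count of 100 or more were higher in replicate 2 and 15 were lower. The median TPM of nuclear protein-coding genes was also lower in replicate 2 (3.17) than in replicate 1 (3.72). No share of all genes in each direction stands beside these counts, so they do not set motor genes apart.

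**Figure D3:**
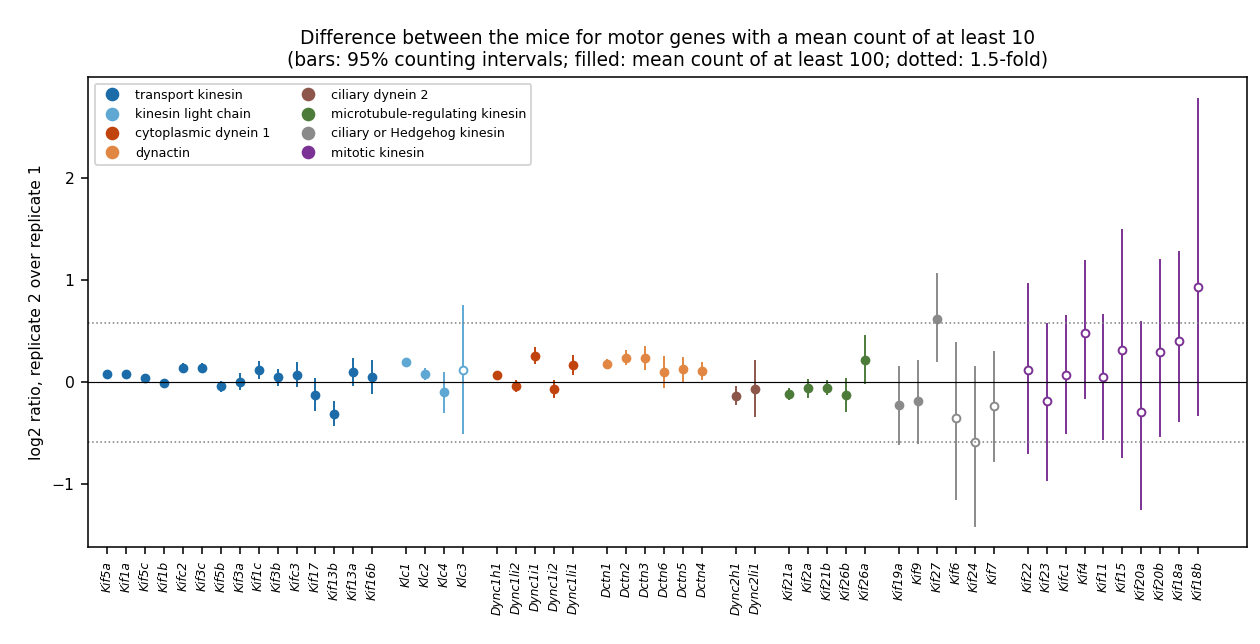
Log2 ratio of replicate 2 over replicate 1 (y axis) for each motor gene with an average count of 10 or more, grouped by role, with 95% counting intervals as bars, filled points for an average count of 100 or more and dotted lines at 1.5-fold. The transport kinesins lie between -0.31 and 0.14 with short bars, Kif27 is the only filled point past a dotted line, and the bars of the mitotic kinesins are wide.

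The second quantifier gave the same broad order at a higher scale. Its TPM was higher for 54 motor genes and lower for 2, Kif22 and Kif18b, with a median ratio to the first of 1.57, the same as over protein-coding genes of at least 1 TPM (1.57). A ratio of at least 3 was found for 4 motor genes, Kif24, Kif2c, Kif14 and Kif15, all of low level. Kif24 had a mean of 16.95 TPM by the second quantifier against 0.78 TPM in the gene table. Of its second TPM, 92.6% in replicate 2 and 93.4% in replicate 1 was on Kif24-204, a processed transcript of 1151 bases. Kif2c had 2.77 TPM against 0.16 TPM, with 80.1% in replicate 2 and 96.4% in replicate 1 on Kif2c-203, a retained intron of 629 bases. The levels of these genes thus depend on the quantifier, and which is nearer to the RNA was not tested.

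**Figure D4:**
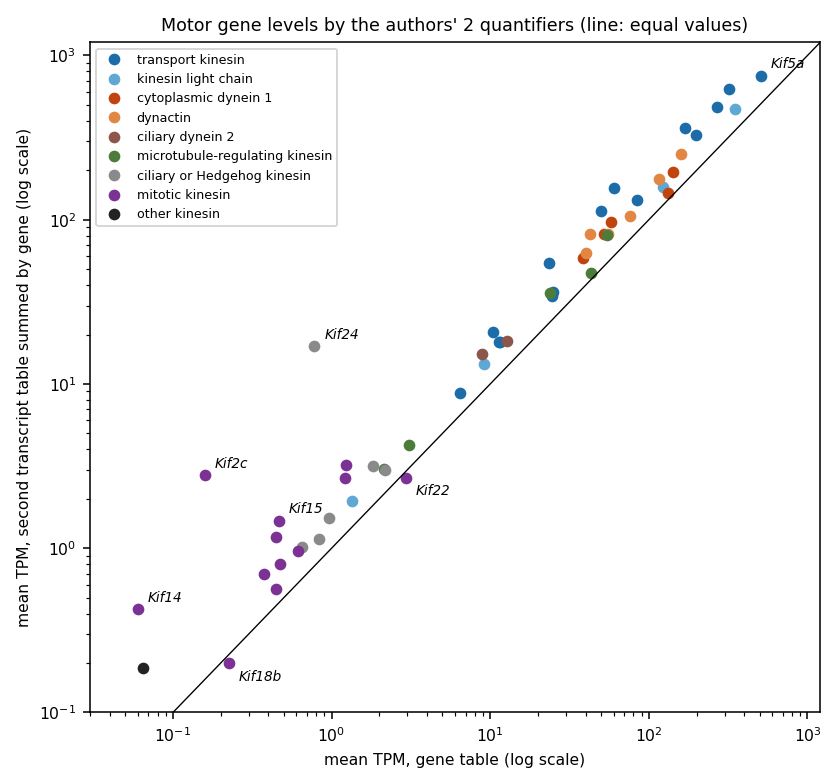
Mean TPM over the 2 mice by the second transcript table (y axis) against the gene table (x axis), both on log scales, coloured by role, with the line of equal values. Most points lie above the line by a like distance, Kif22 and Kif18b lie below it, and Kif24 and Kif2c lie far above it.

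Leading transcripts were examined for the 28 motor genes with an average count of 1000 or more. The most abundant transcript held at least 50% of the TPM in both mice for 19 of 28 (67.9%), against 68.5% of 5560 genes with such a count. It was the same transcript in both mice for 26 of 28, and the second quantifier named the same one for 23 of 28. Among 10 genes chosen for their known splice forms, 7 had a leading transcript of at least 50% in both mice and 7 had the same leader by the second quantifier. No share over all genes stands beside the counts of same leaders, so they do not set motor genes apart.

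Kif5c was the most uniform of these 10, with Kif5c-201 at 90.7% in replicate 2 and 94.6% in replicate 1. The second quantifier gave Kif5c-201 68.5% in replicate 2 and 77.8% in replicate 1. Kif1b followed, with the long Kif1b-203 of 10233 bases at 81.2% in replicate 2 and 81.6% in replicate 1 and the short coding Kif1b-202 of 5992 bases at 3.3% in replicate 2 and 3.2% in replicate 1. By the second quantifier Kif1b-203 held 64.3% in replicate 2 and 66.3% in replicate 1, and Kif1b-202 held 12.2% and 11.2%. Kif1a-204 held 71.8% in replicate 2 and 69.9% in replicate 1. By the second quantifier it held 46.6%, with 31.9% in replicate 2 and 29.9% in replicate 1 on Kif1a-206, a transcript of 528 bases.

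Klc1, Dync1i1, Dync1i2 and Dctn1 were split among several coding forms. Klc1-202 held 58.6% in replicate 2 and 58.1% in replicate 1, and Klc1-203 held 19.5% in replicate 2 and 18.3% in replicate 1. The second quantifier gave Klc1-202 a mean of 50.9% and Klc1-203 a mean of 27.7%. Dync1i1-204 held 56.8% in replicate 2 and 62.3% in replicate 1, and 35.9% by the second quantifier. Dync1i2-208 held 49.5% in replicate 2 and 53.7% in replicate 1, but 1.66% in replicate 2 and 25.9% in replicate 1 by the second quantifier, which put Dync1i2-207 first at a mean of 42.2%. The form of Dync1i2 that led thus differed between the quantifiers. Dctn1-203 held 46.1% in replicate 2 and 40.9% in replicate 1, and led by both quantifiers, at a mean of 28.3% by the second.

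Kif21a-204 held 57.5% in replicate 2 and 64.2% in replicate 1, but 19.8% by the second quantifier, which put Kif21a-205 first at 39.8%. Kif13a-201 held 62.9% in replicate 2 and 52.2% in replicate 1, and 37.7% by the second quantifier. For Kif2a no form held 50% of the TPM in the first table, although Kif2a-201 took 50.7% of its counts there. Kif2a-206 held 32.6% in replicate 2 and 27.2% in replicate 1, Kif2a-205, of only 288 bases, 23.2% in replicate 2 and 30.3% in replicate 1, and the second quantifier put Kif2a-204 first at 56.0%. In 3 further genes, chosen after their values were seen, the leading transcript stood out. Kif21b-204, annotated as a target of nonsense-mediated decay, held 54.2% in replicate 2 and 52.1% in replicate 1, and 52.9% by the second quantifier. Dctn6-210, annotated as a retained intron, held 55.5% in replicate 2 and 53.7% in replicate 1, but 31.0% by the second quantifier. Klc2-204 held 45.5% in replicate 2 and 41.7% in replicate 1, but 94.3% by the second quantifier.

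**Figure D5:**
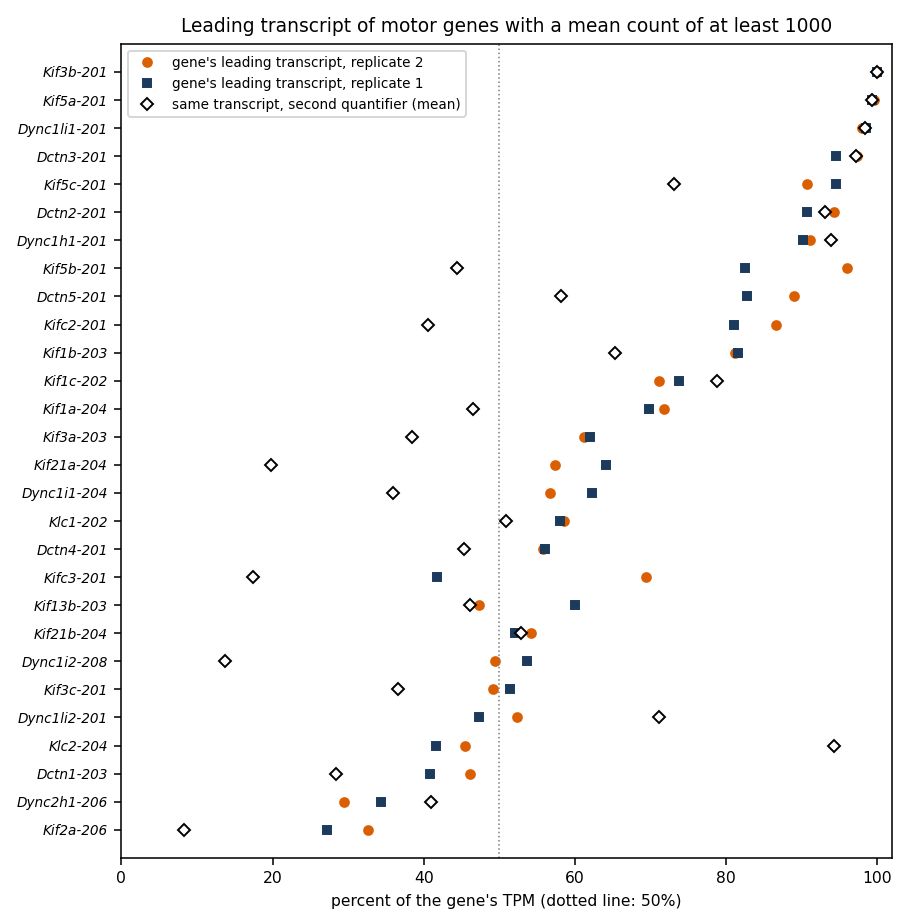
Percent of a gene's TPM (x axis) on its leading transcript for the 28 motor genes with an average count of 1000 or more, with replicate 2 as circles, replicate 1 as squares and the same transcript by the second quantifier as diamonds, the dotted line at 50%. The mice lie close together for most genes, while several diamonds lie far from both, those of Kifc2-201, Kif5b-201, Kif21a-204, Kifc3-201 and Dync1i2-208 to the left and that of Klc2-204 to the right.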

How the data were processed

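The authors deposited 3 tables for each library. Per the file headers, the table of genes and the first table of transcripts give an expected count and a TPM computed by the authors, with column names as RSEM writes them, and the second transcript table holds an estimated count and TPM with names as kallisto writes them. The build is mm10, per the labels. The aligner and the strand setting of counting were not stated in any source used here, so reads of overlapping genes may not be separated. TPM in the deposited tables is scaled over all rows, and nuclear protein-coding genes hold 41.9% of it in replicate 2 and 46.9% in replicate 1. The deposited posterior standard deviation of the count, a score beside each expected count in the gene table, was above 0 for Kifc1 and Kif28 alone among the motor genes. Reads of the CAST/EiJ allele were quantified on the C57BL/6J reference, and any loss was not tested.

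Gene identifiers were joined to GENCODE M21 for symbols and coordinates. Motor genes were taken by symbol. Their roles, the marker and partner lists, the tests and the alternatives were chosen with earlier results of these data known. Full values are given for motor genes with a mean TPM of at least 20, mitotic kinesins of at least 1, the highest gene of each role and the 3 largest ratios each way. Levels are TPM with the mean and SD of the 2 libraries, taken as 2 mice from the animal numbers in the labels, which give both the same donor record. Log2 ratios use rounded expected counts, TMM sizes from edgeR 4.0.16 (R 4.3.3), and prior counts of 2, over the whole gene table. No p-value is given, since each mouse has 1 library. Intervals are 95% Clopper-Pearson intervals of the share of counts from replicate 2, and with the limit of 3 counts for a 0 they cover counting error only. DESeq2 1.42.0 gave size factors as an alternative. The ratio step was tested on simulated data. ATP-binding loops were found by translating GENCODE transcripts of genes, chromosome 18 left out, because no protein table was used here. Python 3.11.15, numpy 2.4.6, pandas 2.3.3 and scipy 1.17.1 were used.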

Additional observations from a re-analysis of the deposited data

How the results depend on the processing

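The ratio of transport to mitotic median TPM (112) stayed far above 1 under every alternative run, none of which listed Kif2a as mitotic. It was 134 by the second transcript table, 206 with summed TPM, and 212 with protein-coding transcripts of at least 1000 bases, a choice made after the data were seen. It lay between 103 and 121 with either mouse left out. The median level over the 58 motor genes (11.4 TPM) was 18.6 by the second table, 25.6 with TPM rescaled to protein-coding genes and 7.33 with the long coding transcripts, and 10.05 to 12.7 with either mouse left out. The count of 42 genes with at least 1 TPM was 43 to 44 with either mouse left out, a change that cannot lower it. It was 45 by the second table, 48 with TPM rescaled to protein-coding genes and 37 with the long coding transcripts. With a minimum of 5 TPM it was 34. With no minimum count, 30 genes in place of 19 had a leading transcript of at least 50%, and 21 to 22 did with either mouse left out. Neither change can lower that count, which was 16 by the second table. Motor genes 1.5-fold apart numbered 6 in place of 1 with spike-in scaling, without Kif27 (log2 ratio 0.16), 5 with a minimum average count of 1 or none, and 0 by the second table. The median log2 ratio of transport kinesins (0.05) was -0.42 with spike-in scaling and 0.10 by the second table, and that of mitotic kinesins (0.21) was -0.22 with spike-in scaling. Of 30 single gene levels, 27 moved by more than 1 SD in the second table and 20 with the long coding transcripts.

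No paired analysis was possible because both libraries belong to 1 group, and a ratio between mice cannot be had with a mouse left out. Depth limits the mitotic kinesins, at most 59.1 counts per library. Only 2 mice were available, the tables hold no molecular identifiers, and shares among transcripts of a gene depend on the quantifier.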
